A study of Mus musculus with 8 samples.

Results

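The nuclear genes for subunits of the oxidative phosphorylation complexes were followed across 8 RNA-seq libraries of mouse retina. They were chosen by symbol, as rows whose names begin with Nduf and a subunit letter and number, Sdh with its letters a to d, Uqcr, Cox4 to Cox8 or Atp5, together with Cyc1. In all, 88 of the 24860 genes in the expression table matched, and the 84 whose 8-library mean reached 1 FPKM were kept. FPKM scales fragment counts by the length of the gene model and the mapped fragments of the library, so it can be compared between genes. This rule does not use the comparison between the groups, but the list was chosen with earlier results of these data known. The 84 genes divide into 38 of complex I, 4 of complex II, 9 of complex III, 16 of complex IV and 17 of complex V, the ATP synthase. Ndufa4, its paralog Ndufa4l2 and Cox7a2l are placed with complex IV.

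The rows just inside the limit were Ndufa4l2 with a mean of 1.67 FPKM, Ndufs6b, annotated as a pseudogene in RefSeq, with 2.39, and Cox7a1 with 3.27. Those just outside were Ndufb4c with 0.50 FPKM, Cox6a2 with 0.380, Cox8b with 0.213 and Cox7b2 with 0.0576. All 84 genes also passed the limit set for the test, which is the same 1 FPKM. Ndufab1, the acyl carrier protein of complex I, does not match the symbols and was followed with the assembly genes instead.

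In 4 libraries, labelled AAV2-shCX36, the retina had received an adeno-associated viral vector encoding a hairpin that targets connexin 36, which forms electrical synapses between neurons. The remaining 4, labelled AAV2-scramble, had a vector with a control hairpin. All 8 therefore carry a vector, and the comparison holds no untreated retina. Different mice were used, but which and how many gave each library, their strain, sex and age, the injection, the time after it, any injury, the promoter of the hairpin and any cell sorting are not given in the sources used here. Replicate numbers come from the sample titles, and the spread that p-values measure is that between these libraries.

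Oxidative phosphorylation takes electrons from NADH through complex I and from succinate through complex II to ubiquinone, then through complex III and cytochrome c to complex IV, which reduces oxygen to water. Complexes I, III and IV pump protons out of the mitochondrial matrix, and complex V lets them return to make ATP. Most subunits are encoded in the nucleus and imported, while a small core is encoded in mitochondrial DNA. The retina has a high energy demand, and its photoreceptors pack mitochondria into their inner segments, while ganglion cells hold many in their cell bodies and unmyelinated axons. Transcription of the nuclear genes is known to be driven by factors such as NRF1, YY1, ETS family members and the estrogen-related receptors.

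What the promoters of these genes share was read from RefSeq windows of 300 bases on GRCm38.p6, from 250 bases before the transcript start to 50 after it. 68 of the 84 genes matched, with 73 windows. The letters GCGCATGCG, the core bound by NRF1, stood on either strand of 8 of the 73 windows (10.96%), against 1.75% of all 32851 windows of the same length. The letters AAGATGGCG, the core bound by YY1, were in 7 windows (9.59%) against 1.40%. CCGGAAGT, bound by ETS factors, was in 5 (6.85%) against 3.89%, and AAGGTCA, bound by estrogen-related receptors, in 8 (10.96%) against 4.72%. Any of the 4 was found in 25 windows (34.2%) against 11.2%. The windows of these genes also had a higher GC content, with a median of 57.7% against 52.7%, and the part of base composition in these shares was not tested. A match describes letters in the window and is not a measured binding site. Both strands were searched for each motif, and the NRF1 core overlaps its own reverse complement.

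The NRF1 stretches show which subunit genes carry the core, 5′ to 3′ on the gene's strand, with the match in capitals. Where both strands match, the capitals mark the joined run.
Atp5g2: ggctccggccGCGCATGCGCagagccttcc
Atp5k: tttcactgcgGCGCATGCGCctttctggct
Atp5l: aaccaataaCGCATGCGCatttccccca
Cox6a1: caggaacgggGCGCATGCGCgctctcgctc
Ndufa11: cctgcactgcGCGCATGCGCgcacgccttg
Ndufa8: tcgctggagaCGCATGCGCagatggtacc
Uqcr11: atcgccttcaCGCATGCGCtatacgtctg
Uqcrc1: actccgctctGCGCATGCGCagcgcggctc
These lie at chr15:102671070-102671099 for Atp5g2, chr5:108434430-108434459 for Atp5k, chr9:44920965-44920992 for Atp5l and chr5:115349101-115349130 for Cox6a1, all on the minus strand. The others are at chr17:56717692-56717721 for Ndufa11 and chr9:108936668-108936697 for Uqcrc1 on the plus strand, and at chr2:36049329-36049357 for Ndufa8 and chr10:80406808-80406836 for Uqcr11 on the minus strand. The 8 genes cover complexes I, III, IV and V and mean levels from 11.9 to 158 FPKM.

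The YY1 stretches are shown because most of them sit in one place, just after the transcript start.
Atp5j: aagtgtaggaAAGATGGCGgagtcttagc
Atp5j2: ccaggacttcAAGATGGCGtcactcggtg
Ndufa9: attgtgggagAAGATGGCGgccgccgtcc
Ndufc1: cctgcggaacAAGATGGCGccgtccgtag
Ndufs4: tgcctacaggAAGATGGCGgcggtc
Ndufs6: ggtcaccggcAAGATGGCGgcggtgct
Ndufs7: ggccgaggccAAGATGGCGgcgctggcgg
They lie at chr16:84835046-84835074 for Atp5j, chr5:145191500-145191528 for Atp5j2, chr6:126849097-126849125 for Ndufa9, chr3:51408915-51408943 for Ndufc1, chr13:114388045-114388069 for Ndufs4 and chr13:73328433-73328459 for Ndufs6 on the minus strand, and at chr10:80249463-80249491 for Ndufs7 on the plus strand. In 6 of the 7 the match begins 22 to 35 bases after the transcript start, and in Atp5j 88 bases before it. In those same 6 the ATG of the match is the annotated translation start, so those letters are also coding sequence. Between the groups, the 8 genes with the NRF1 letters had a median log2 difference of -0.00 (range -0.23 to 0.13) and the 7 with the YY1 letters of 0.02 (range -0.13 to 0.21), both near the medians of all 84 genes and of all genes tested given below. The 5 with the ETS letters had a median of -0.05 (range -0.15 to 0.05). For the 8 with the estrogen-related receptor letters it was -0.01 (range -0.38 to 0.11).

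Depth was even, at about 35900000 to 38800000 fragments a library as estimated from the spacing of low values, and total FPKM ran from 282721 to 294055. Gjd2, the gene of connexin 36, was at 38.7, 35.9, 17.4 and 18.2 FPKM in AAV2-scramble libraries 1 to 4 and at 17.0, 14.0, 14.6 and 16.6 in AAV2-shCX36 libraries 1 to 4. The groups did not overlap, with a log2 difference of -0.70 ± 0.25 (SE), an exact permutation p of 0.0286, the smallest that 4 against 4 libraries can give, and an adjusted p of 0.148 in limma. Without AAV2-scramble 1 and 2 the difference was -0.19. The label of ganglion cells does not describe the libraries alone: the summed FPKM of 10 rod markers was 1716 to 2452 in AAV2-scramble and 1076 to 1513 in AAV2-shCX36, against 1647 to 2833 and 2679 to 2877 for 12 ganglion cell markers. AAV2-scramble 1 and 2 stood apart by 8 oligodendrocyte markers, summing to 57.0 and 181 FPKM against 10.6 to 12.2 in the other 6 libraries, and by 9 microglial markers, at 960 and 914 against 220 to 492. 7 bipolar cell markers separated the same libraries in which Gjd2 was high, summing to 306 and 309 FPKM in AAV2-scramble 1 and 2 against 84.04 to 161 in the other 6. The part of these markers in the Gjd2 level was not tested.

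Nuclear oxidative phosphorylation genes differed as a group by less than the spread between libraries in the comparison of AAV2-shCX36 with AAV2-scramble. Their summed FPKM was 6045, 5406, 6214 and 6516 in AAV2-scramble 1 to 4 and 6197, 5740, 5961 and 6309 in AAV2-shCX36 1 to 4. The groups overlapped fully, with means of 6045 ± 468 and 6052 ± 254 (SD, n = 4 each), so that AAV2-shCX36 was at 100.1% of the control mean. The median log2 difference of the 84 genes, on the log2(FPKM + 1) scale as AAV2-shCX36 minus AAV2-scramble, was 0.01, and that of the 12858 genes tested was 0.01. 46 differences were positive and 38 negative, from -0.48 for Cox4i2 to 0.22 for Ndufa1.

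In limma, adjusted over all 12858 genes at 0.05, 1 of the 84 genes was called, or 1.19%, against 4.76% of all genes tested. The 1 gene, Cox4i2, was lower, a direction in which 2.52% of all genes were called. At an unadjusted p under 0.05 there were 5 of 84, or 5.95%, against 22.6% of all genes. Groups of 4 libraries failed to overlap in 1 of 84, or 1.19%, against 15.9% of all genes. Each of these shares lies below the share over all genes. Of the 77 members with a mean of at least 20 FPKM none was called in limma and 4 had an unadjusted p under 0.05. Among all 3267 genes at that level, 87 were called higher and 129 lower. At an unadjusted p under 0.05 in limma, 598 of the 3267 were higher and 346 lower.

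The difference was bounded for most of these genes. The 95% interval of the limma difference lay within 1.5-fold on the log2(FPKM + 1) scale in either direction for 80 of 84 (95.2%), against 78.6% of all genes. The median SD between libraries of a group was 0.12 on the log2 scale for these genes and 0.14 for all genes. Members have higher levels than most genes. At 20 FPKM or more the median SD was 0.12 for members and for all genes alike. The intervals within 1.5-fold were then 98.7% for members and 86.3% for all genes. In simulated data on the same 12858 genes, the test recovered 4% of genes changed by 1.2-fold, 56% at 1.5-fold and 90% at 2-fold. The changed genes, 50 for each fold, were drawn from all genes tested, with independent noise. Changes of 1.2-fold were thus mostly missed there, and the rates for the subunits themselves were not measured. The simulation gave 127 calls, against 612 in the data, so an adjusted p of 0.05 stood at a stricter unadjusted p there. Its rates therefore need not hold for the data.

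**Figure D1:**
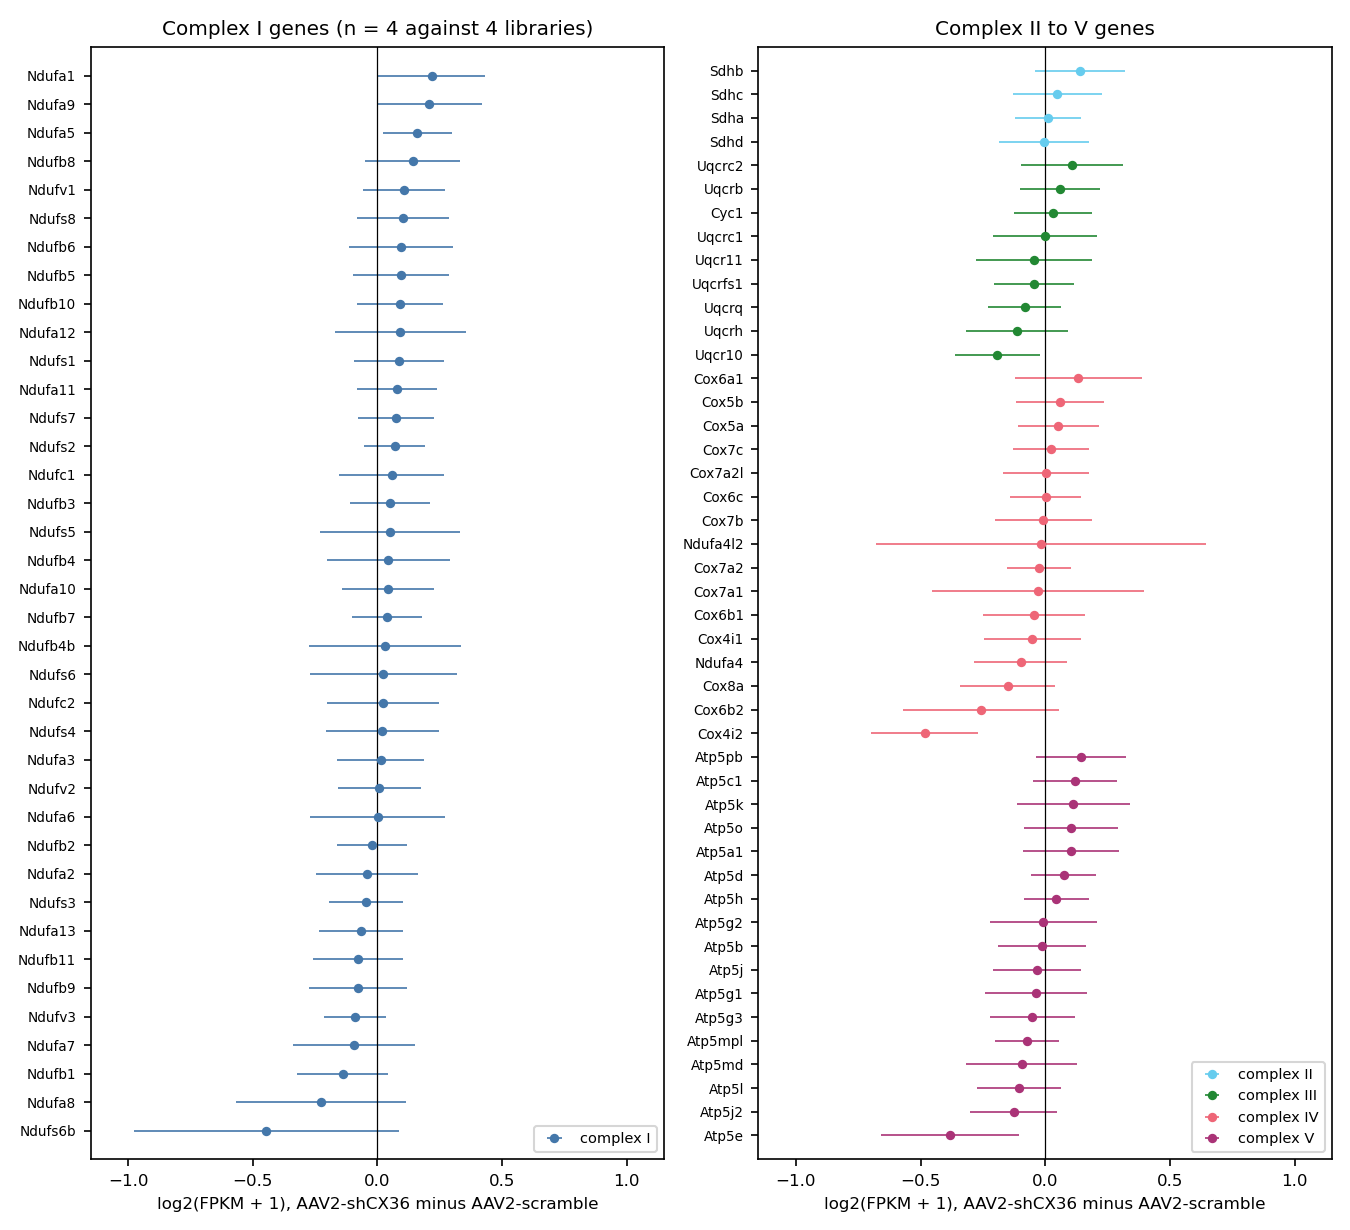
Log2(FPKM + 1) difference between AAV2-shCX36 and AAV2-scramble for each of the 84 genes, coloured by complex; points are limma estimates from 4 against 4 libraries and bars are 95% intervals. Most points lie close to 0, and the interval of Cox4i2, at -0.48, lies farthest from it.

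Complex I, the NADH dehydrogenase, had no called gene among its 38. Its median log2 difference was 0.04, with 27 positive and 11 negative, and its summed FPKM was 1874 ± 158 in AAV2-scramble and 1911 ± 78.0 in AAV2-shCX36. By part of the enzyme, the 10 genes of the N module, where NADH is oxidised, had a median of 0.01, the 6 of the Q module, where ubiquinone is reduced, 0.09, and the 20 of the membrane arm, which pumps protons, 0.04.

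Ndufa1, a small subunit of the membrane arm on chromosome X (chrX:37187588-37191238), was at 46.5, 40.9, 49.8 and 55.3 FPKM in AAV2-scramble and 57.9, 52.9, 60.4 and 52.1 in AAV2-shCX36. AAV2-scramble 4 lay among the AAV2-shCX36 libraries, and the log2 difference was 0.22 ± 0.09 (limma adjusted p = 0.214). Ndufa5, of the Q module (chr6:24518662-24527690), was at 49.9, 50.9, 52.2 and 53.4 against 60.9, 52.9, 56.3 and 61.1 FPKM. Its groups met only at AAV2-scramble 4 and AAV2-shCX36 2, with a difference of 0.16 ± 0.06 (limma adjusted p = 0.170).

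Ndufa9, a Q module subunit near the ubiquinone site (chr6:126821863-126849144), was at 49.2, 46.6, 56.9 and 63.0 FPKM in AAV2-scramble and 66.1, 60.0, 62.3 and 59.9 in AAV2-shCX36. Only AAV2-scramble 4 reached the AAV2-shCX36 range, and the log2 difference was 0.21 ± 0.09 (limma adjusted p = 0.229). Ndufa8, a subunit of the intermembrane space side (chr2:36036324-36049338), had the most negative estimate of the complex after the gene copy Ndufs6b, at 56.5, 37.7, 54.3 and 57.3 against 46.0, 34.4, 45.5 and 48.3 FPKM. AAV2-scramble 2 lay far below its group, inside the AAV2-shCX36 range, and the difference was -0.23 ± 0.15 (limma adjusted p = 0.399).

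Ndufb10, the most abundant complex I transcript here, averaged 97.9 FPKM in AAV2-scramble and 104 in AAV2-shCX36. Ndufb8, whose protein is a common readout of assembled complex I, averaged 24.8 and 27.3. The gene copy Ndufs6b, at 2.90 ± 0.96 against 1.87 ± 0.76 FPKM, had a log2 difference of -0.45 ± 0.24 (limma adjusted p = 0.297). Its parent Ndufs6, a zinc-binding subunit of the N module, averaged 49.4 and 49.99 FPKM. Reads of a copy and its parent may be shared, so the level of Ndufs6b is uncertain.

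Complex II, the succinate dehydrogenase, is wholly nuclear-encoded and so has no part in mitochondrial DNA. None of its 4 genes was called. Sdha, the flavoprotein that oxidises succinate, was at 118, 111, 116 and 125 FPKM in AAV2-scramble and 115, 117, 115 and 126 in AAV2-shCX36. The values overlapped throughout, with a log2 difference of 0.01 ± 0.06. Sdhb, the iron-sulfur subunit, had the largest estimate of the complex, 0.14 ± 0.08 (limma adjusted p = 0.332), from 46.2 ± 4.87 to 50.9 ± 2.91 FPKM. The membrane anchors Sdhc and Sdhd differed by 0.05 ± 0.08 and -0.01 ± 0.08.

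Complex III, the cytochrome bc1 complex, had a median log2 difference of -0.05 over 9 genes, with 3 positive and 6 negative and none called. Uqcr10, a small subunit (chr11:4701968-4704344), was at 60.8, 55.8, 58.7 and 67.4 FPKM in AAV2-scramble and 55.0, 47.8, 56.6 and 52.5 in AAV2-shCX36. AAV2-scramble 2 fell below AAV2-shCX36 3, so the groups overlapped, and the difference was -0.19 ± 0.08 (limma adjusted p = 0.181). Uqcrh, the hinge protein and the most abundant of the 9, averaged 104 and 96.2 FPKM. The catalytic subunits Cyc1, which carries cytochrome c1, and Uqcrfs1, the Rieske iron-sulfur protein, differed by 0.03 ± 0.07 and -0.05 ± 0.07, and the core subunits Uqcrc1 and Uqcrc2 by -0.00 ± 0.09 and 0.11 ± 0.09.

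Complex IV, cytochrome c oxidase, held the only called gene. Cox4i2 (chr2:152753916-152765039) encodes the alternative form of subunit 4, which is known for expression in lung, in oxygen-sensing cells and in pericytes and smooth muscle of vessels. It was at 15.1, 15.3, 12.8 and 12.8 FPKM in AAV2-scramble 1 to 4 and at 10.7, 8.27, 9.93 and 10.1 in AAV2-shCX36 1 to 4. Every AAV2-shCX36 library lay below every AAV2-scramble library. The means were 14.0 ± 1.40 and 9.75 ± 1.04 FPKM, or 69.5% of the control mean, and the log2 difference was -0.48 ± 0.09 (limma adjusted p = 0.0258).

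This call was close to the threshold. It was lost in 10 of 23 alternative settings, where the adjusted p in limma went up to 0.111, and it kept its negative sign in all 23. It was lost on leaving out AAV2-scramble 1 (adjusted p = 0.0592), AAV2-scramble 2 (0.0540) or any of AAV2-shCX36 1 to 4 (0.0507, 0.0706, 0.0700 and 0.0602). With AAV2-scramble 1 and 2 both left out the log2 difference was -0.37 (adjusted p = 0.0625). With AAV2-scramble 3 and 4 left out instead it was -0.60 (adjusted p = 0.00583).

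Markers of vessel wall cells were read beside Cox4i2. None of the 5 tested of 7 was called, and no marker was at 0 in all libraries. The 7 summed to 41.5, 52.6, 16.7 and 7.10 FPKM in AAV2-scramble 1 to 4 and 31.7, 19.9, 15.2 and 33.9 in AAV2-shCX36 1 to 4. Rgs5, a pericyte marker, differed by -0.02 ± 0.54, and Pdgfrb, the pericyte growth factor receptor, by 0.19 ± 0.38. Cox4i2 was highest in the same AAV2-scramble 1 and 2 in which the marker sum was highest. AAV2-scramble 4 had the lowest marker sum and a Cox4i2 level above every AAV2-shCX36 library. The part of vessel wall cells in the Cox4i2 level was not tested. In bulk RNA, fewer cells of a type and less RNA per cell cannot be told apart.

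Cox4i1, the ubiquitous form of subunit 4, was at 207, 168, 196 and 212 FPKM in AAV2-scramble and 203, 174, 183 and 193 in AAV2-shCX36, with a log2 difference of -0.05 ± 0.09. Its groups overlapped fully. Cox4i2 made up 6.82, 8.36, 6.14 and 5.70% of the summed FPKM of the pair in AAV2-scramble and 5.01, 4.53, 5.15 and 4.97% in AAV2-shCX36. The shares did not overlap, with means of 6.76 ± 1.16% and 4.91 ± 0.269%. The two-sided exact permutation p was 0.0286, the smallest possible, and 0.257 after Benjamini-Hochberg adjustment over the 9 isoform shares tested, so it did not pass.

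**Figure D2:**
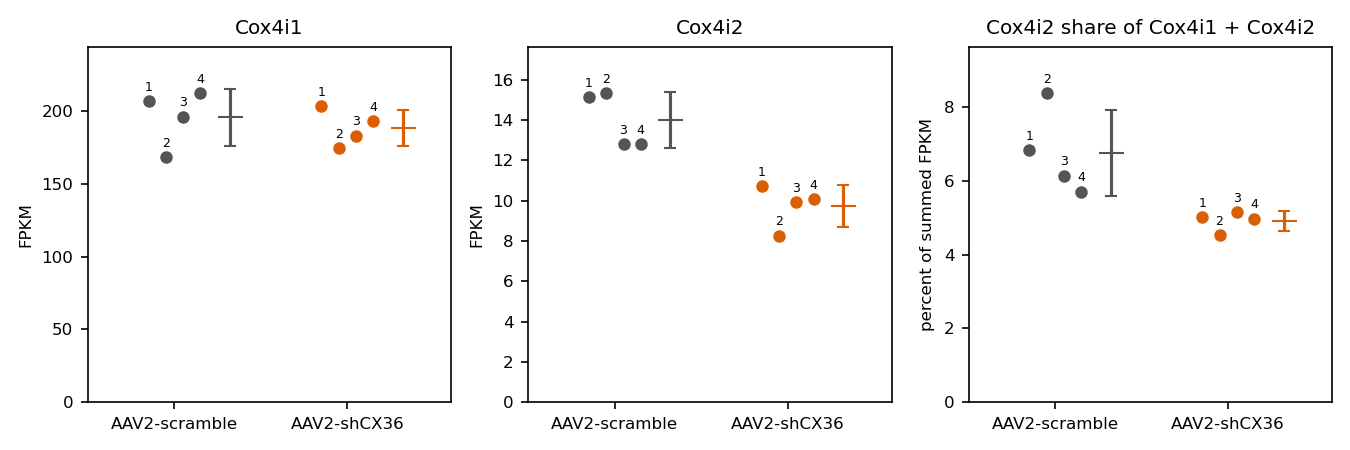
FPKM of Cox4i1 and Cox4i2, and the percent of their sum held by Cox4i2, in each library (points, numbered by replicate) with the mean and SD of 4 libraries beside them. Cox4i2 lay at 12.8 to 15.3 FPKM in AAV2-scramble and 8.27 to 10.7 in AAV2-shCX36, while Cox4i1 overlapped.

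The other isoform sets moved within their spread. Cox6b2, a form of subunit 6b known from testis, held 5.55 ± 0.527% of its pair in AAV2-scramble and 4.83 ± 1.36% in AAV2-shCX36 (exact permutation p = 0.371), and its log2 difference was -0.26 ± 0.14 (limma adjusted p = 0.305). Cox7a1, the heart and muscle form of subunit 7a, held 2.36 ± 0.590% and 2.29 ± 0.373% of its set, Cox7a2, the widely expressed form, 45.4 ± 1.54% and 44.9 ± 0.889%, and Cox7a2l, which links complexes III and IV in supercomplexes, 52.2 ± 0.988% and 52.8 ± 0.668%. Ndufa4l2, a gene induced by hypoxia, held 0.989 ± 0.725% of the sum with Ndufa4 and 0.903 ± 0.237% after AAV2-shCX36. No share other than that of Cox4i2 had an exact permutation p under 0.37.

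Of the remaining complex IV genes, Cox8a, the smallest subunit and the most abundant transcript of the complex, was at 219, 215, 215 and 240 FPKM in AAV2-scramble and 192, 176, 215 and 221 in AAV2-shCX36. The groups overlapped through AAV2-shCX36 4, with a log2 difference of -0.15 ± 0.08 (limma adjusted p = 0.322). Ndufa4 averaged 185 and 172 FPKM, Cox6a1, 151 and 164, and Cox6b1, which bridges the monomers of the dimer, 146 and 141, with adjusted p in limma of 0.512 or more. The 16 genes had a median of -0.02.

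Complex V, the ATP synthase, held the most abundant member. Atp5b, the catalytic beta subunit, was at 489, 452, 506 and 535 FPKM in AAV2-scramble and 501, 461, 480 and 519 in AAV2-shCX36. The ranges overlapped, with a difference of -0.01 ± 0.08. Atp5a1, the alpha subunit that forms the same catalytic ring, averaged 264 and 282 FPKM (0.10 ± 0.09). The 17 genes had a median of -0.01, 7 positive and 10 negative.

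Atp5e, the epsilon subunit of the central stalk (chr2:174461075-174464101), had the largest negative estimate of the complex. It was at 58.8, 44.8, 56.4 and 68.2 FPKM in AAV2-scramble 1 to 4 and 37.3, 45.6, 46.0 and 44.0 in AAV2-shCX36 1 to 4. AAV2-scramble 2 alone lay within the AAV2-shCX36 range. The log2 difference was -0.38 ± 0.12 (limma adjusted p = 0.115). Without AAV2-scramble 2 it was -0.49 with an adjusted p of 0.0320 in limma, and Atp5e was then the member called in place of Cox4i2. Atp5c1 and Atp5d, the other central stalk subunits, gamma and delta, differed by 0.12 ± 0.07 and 0.07 ± 0.06.

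The c ring, which turns as protons pass, has 3 genes for 1 identical mature protein. Atp5g1, Atp5g2 and Atp5g3 held 20.9 ± 0.707%, 31.0 ± 1.88% and 48.0 ± 1.92% of their summed FPKM in AAV2-scramble and 20.9 ± 0.993%, 31.6 ± 1.10% and 47.5 ± 1.64% in AAV2-shCX36. Atp5g3 was the main source in every library, and none of the 3 shares had an exact permutation p under 0.65. Atp5pb, subunit b of the outer stalk, averaged 104 ± 11.2 and 115 ± 3.01 FPKM (log2 difference 0.14 ± 0.08, limma adjusted p = 0.315).

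**Figure D3:**
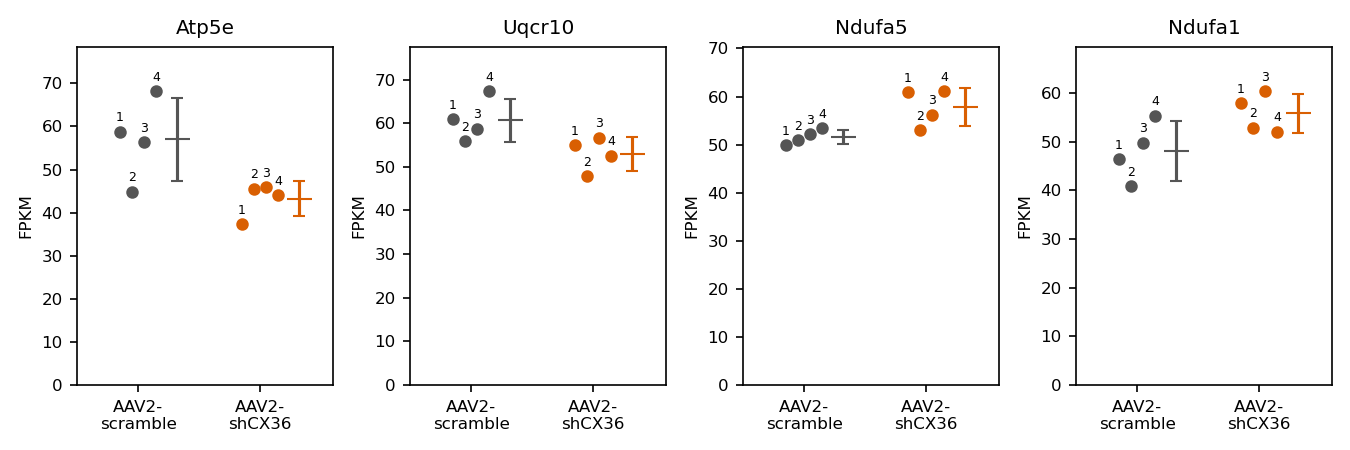
FPKM in each library (points, numbered by replicate; mean and SD beside them) of the 4 genes other than Cox4i2 with an unadjusted p under 0.05 in limma. In each of them at least 1 AAV2-scramble library reaches the AAV2-shCX36 range, such as AAV2-scramble 2 at 44.8 FPKM for Atp5e.

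The control libraries differed among themselves more than the groups did. AAV2-scramble 2 was the lowest of the 8 libraries for 52 of the 84 genes (61.9%), against 24.8% of all genes tested and 44.7% of the genes with at least 20 FPKM. AAV2-scramble 4 was the highest for 28 (33.3%), against 11.3% of all genes and 17.5% of those with at least 20 FPKM. The median deviation of the 84 genes from their 8-library mean was -0.16 on the log2 scale in AAV2-scramble 2 and 0.11 in AAV2-scramble 4, where the medians of all genes were 0.03 and -0.02. The summed ganglion cell markers were at 2128, 1647, 2523 and 2833 FPKM in AAV2-scramble 1 to 4, in the same order as the summed levels of the 84 genes, and at 2679, 2877, 2844 and 2810 in AAV2-shCX36 1 to 4, where AAV2-shCX36 2 had the highest marker sum and the lowest sum of the 84 genes. AAV2-scramble 2 also held the highest oligodendrocyte sum. The part of these in the levels was not tested.

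**Figure D4:**
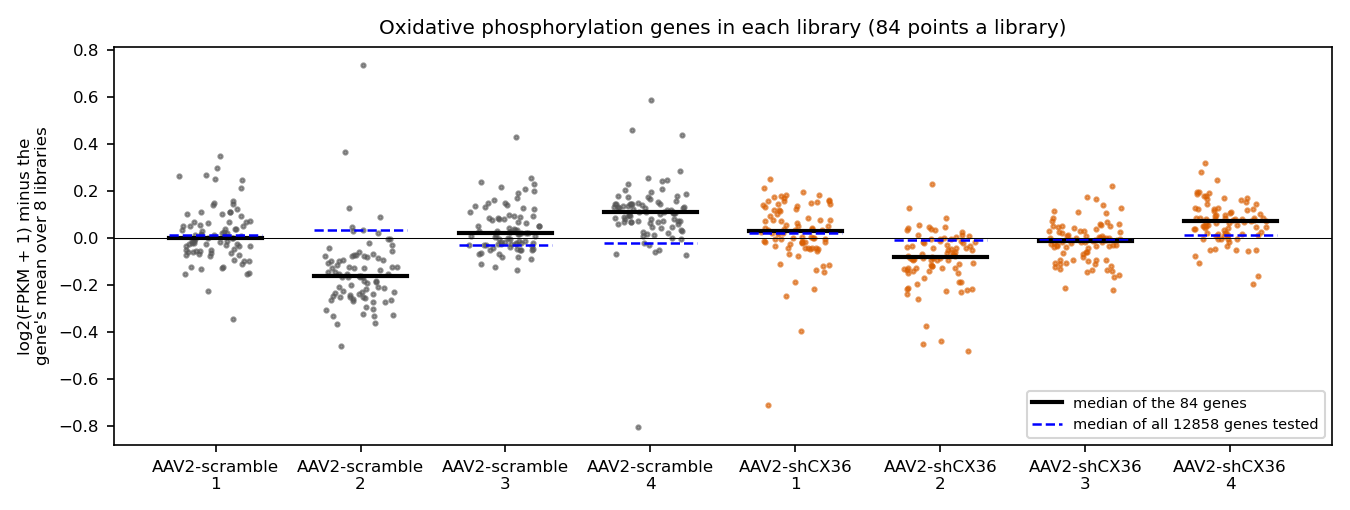
Log2(FPKM + 1) of each of the 84 genes (points) minus its mean over the 8 libraries, by library, with the median of the 84 genes (solid line) and of all 12858 genes tested (dashed line). The solid line lies at -0.16 in AAV2-scramble 2 and 0.11 in AAV2-scramble 4, and the dashed lines lie near 0.

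The sign of the median changed with the control libraries used. It was also negative with all controls kept under quantile normalization (-0.02), scaling to the sum without mitochondrial DNA genes and library weights (-0.00 each), and without AAV2-shCX36 4 (-0.02) or AAV2-shCX36 1 and 4 (-0.04). Without AAV2-scramble 1 and 2 it was -0.06, with 62 of 84 negative (73.8%), where the median of all genes tested was 0.04. The all-gene shares were 7.33% called and 35.4% without overlap. 17 members then did not overlap (20.2%), 16 of them lower, and 1 was called, Atp5e, which was lower (-0.52, limma adjusted p = 0.0274), against 3.02% of all genes called lower. Without AAV2-scramble 3 and 4 the median was 0.07, with 64 of 84 positive (76.2%), where the median of all genes tested was -0.02. The all-gene shares were 26.8% called and 50.2% without overlap. 6 members were then called, 5 higher, Ndufa9 (0.37), Ndufa1 (0.35), Ndufa12 (0.30), Ndufb8 (0.28) and Atp5pb (0.27), and Cox4i2 lower, against 11.9% of all genes called higher and 14.8% lower. 18 did not overlap, or 21.4%. In both cases the share of members called, and the share without overlap in either direction, was below that of all genes. The all-gene share without overlap was not counted by direction, so the 16 lower members have none beside them. These comparisons share the AAV2-shCX36 libraries, and Ndufa12 is named after its value was seen.

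By complex, the median without AAV2-scramble 1 and 2 was -0.06 for complex I, 0.00 for II, -0.13 for III, -0.07 for IV and -0.04 for V. Without AAV2-scramble 3 and 4 it was 0.11, 0.06, 0.04, 0.04 and 0.06. Complexes III, IV and V changed sign along with complex I. Complex II, which has the fewest genes, stayed at or above 0.

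The genes around the subunits were read from lists of known helpers. Of the assembly factors, 1 of 18 was called for complex I and none of 4, 6, 21 and 5 tested for complexes II to V. Over all genes tested, 4.76% were called. The 1 gene, Ndufaf1, which helps build the membrane arm of complex I, was at 8.81, 8.46, 8.78 and 9.25 FPKM in AAV2-scramble and 11.1, 10.4, 11.01 and 10.3 in AAV2-shCX36. The groups did not overlap, and the log2 difference was 0.25 ± 0.06 (limma adjusted p = 0.0471). The sign held in all 23 alternative settings, but the call was lost in 15 of them, among them leaving out AAV2-scramble 1 (adjusted p = 0.0992), 2 (0.0784) or 3 (0.0994) or any AAV2-shCX36 library (0.0870 to 0.148). Ndufab1 was at 14.2 FPKM in both groups.

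Cycs, the electron carrier cytochrome c, was at 13.3, 10.3, 15.4 and 15.3 FPKM in AAV2-scramble and 15.6, 15.9, 15.9 and 16.3 in AAV2-shCX36, without overlap, and did not pass the test (0.23 ± 0.11, limma adjusted p = 0.259). Atpif1, which inhibits the ATP synthase when it runs in reverse, differed by 0.04 ± 0.09. None of the 17 tricarboxylic acid cycle genes was called in limma, with 15 positive and a median of 0.10. Of all 12858 genes tested, 6741 were positive (median 0.01), and of the 3267 with at least 20 FPKM, 2025 were (median 0.05). None of 20 import and dynamics genes (median 0.08) or 10 transcriptional regulators (median -0.07) was called. Of the estrogen-related receptors among the regulators, Esrrg was lower without overlap but did not pass (-0.54 ± 0.17, limma adjusted p = 0.109). It was at 16.2 and 15.7 FPKM in AAV2-scramble 1 and 2 but at 10.2 and 9.48 in AAV2-scramble 3 and 4. The AAV2-shCX36 libraries were at 7.60 to 9.20. Esrra differed by 0.09 ± 0.07 (limma adjusted p = 0.505). Both are named after their values were seen. Without AAV2-scramble 3 and 4, Cycs, 4 of 17 cycle genes and 4 of 20 import and dynamics genes were called higher, where 11.9% of all genes were. Without AAV2-scramble 1 and 2, of these only 1 import and dynamics gene was called higher, against 4.31% of all genes.

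The mitochondrial DNA genes of the same complexes did not follow the nuclear genes: 7 of 13 were called lower in limma, against 2.52% of all genes, and all 13 estimates were negative, with a median of -0.51. Without AAV2-scramble 1 and 2, 7 were called lower, and without AAV2-scramble 3 and 4, 8. Of the cell markers, 7 of 10 for rods (median -0.73), 3 of 8 for cones (-0.73) and 5 of 10 for Müller glia (-0.93) were also called lower, and their part in this was not tested. The summed FPKM of the 13 mitochondrial DNA genes was divided by that of the 84 nuclear genes. This ratio was 2.55, 3.33, 3.08 and 2.51 in AAV2-scramble and 1.77, 2.25, 2.24 and 2.25 in AAV2-shCX36. The mean was at 74.2% of the control mean, without overlap. COX1, CYTB and ND1 weigh most in the sum, with AAV2-scramble means of 5675, 3985 and 3151 FPKM. None of them was called (limma adjusted p = 0.203, 0.0914 and 0.171), so the ratio does not rest mainly on the called genes.

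Some levels rest on reads that other genes could share. Of 79 members found in GENCODE, 21 had a stretch of at least 150 bases, the read length, at 98% identity or more with another gene, and 12 with a pseudogene. Among the genes named above, Atp5g1, Atp5g2, Atp5l, Cox7a2l, Ndufa12 and Uqcr11 have such a pseudogene, and Cox4i1 and Uqcrc2 share a stretch with the genes Emc8 and Pdzd9. The levels of these genes, and the shares computed from them, are uncertain. The mitochondrial DNA genes were not part of this check. Reads that they may share with other sequences were not examined, so their levels and their ratio to the nuclear genes are uncertain too.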

How the data were processed

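Total RNA of 8 mouse retina samples was sequenced as 150-base paired-end reads, per the labels' protocols. The submitters' processing notes name fastp, HISAT2, HTSeq, R 3.2.0, DESeq2 and the builds GRCm38 and mm10. The strand setting of the counting is not stated. The values are FPKM, deposited by the authors as 1 table of 24860 symbols, without counts, so no count model was run and no counting interval is given.

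The 12858 genes averaging 1 FPKM or more over the libraries were fitted on log2(FPKM + 1) in R 4.3.3 with limma 3.58.1 (lmFit, then eBayes using the trend option), AAV2-shCX36 against AAV2-scramble, without covariates. A Benjamini-Hochberg adjusted p under 0.05 over all of them made a call. Errors of log2 differences are moderated SEs, and those of FPKM and shares are SDs over 4 libraries. Gjd2 and the isoform shares had two-sided exact permutation tests over 70 relabellings. The fit was tested on simulated data, with 2 unchanged genes among 127 calls.

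The members and the lists were chosen with earlier results of these data known. Members are named by p, size of difference, level, place in complex II, isoform sets and nearness to the limit. Module medians and promoter sets are additional descriptions. Positions and promoters come from RefSeq GRCm38.p6, translation starts and near copies from GENCODE vM21. Alternatives were other pseudocounts, filters, scalings, variance models, library weights, a replicate block, another threshold, and omitted libraries. Tables were made with pandas 2.3.3 and numpy 2.4.6 in Python 3.11.15, and figures with matplotlib 3.10.9.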

Additional observations from a re-analysis of the deposited data

Results flagged for a closer look

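Of 94 groups of 4 values checked, 4 held a library far from the other 3, where chance alone gives about 1 in 20. For Cox7a2, AAV2-scramble 4 was at 68.7 FPKM against 61.5 to 61.9 in the other control libraries. For Cox8a, AAV2-scramble 4 was at 240 FPKM (239.7) against 215 to 219. For Ndufa8, AAV2-scramble 2 was at 37.7 FPKM against 54.3 to 57.3. For Sdha, AAV2-shCX36 4 was at 126 FPKM against 115 to 117.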

How the results depend on the processing

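Of the 31 named members, 15 kept the sign of their log2 difference in all 23 settings, and the other 16, none of them called in any setting, turned sign in at least 1. The members' median ranged from -0.06 to 0.07 over the settings. Genes called higher and lower in limma, 288 and 324 in the report, numbered 177 and 134 without a filter, 571 and 582 at an adjusted p under 0.1, 554 and 388 with AAV2-scramble 1 and 2 left out, 1536 and 1905 with AAV2-scramble 3 and 4 left out, 76 and 30 with AAV2-shCX36 1 and 4 left out, and 101 to 573 and 70 to 589 with 1 library left out. Members called lower numbered 0 without a filter and without AAV2-shCX36 1 and 4, and 0 to 1 with 1 library left out; members called higher numbered 5 without AAV2-scramble 3 and 4. Members without overlap numbered 3 on rescaling to TPM, 4 on scaling to the sum without mitochondrial DNA genes, 4 after quantile normalization, 17, 18 and 8 without the 3 pairs in the same order, and 1 to 9 with 1 library left out (5 without AAV2-scramble 2 and 9 without AAV2-scramble 4). Among all genes tested, 15.9% had no overlap in the report. This rose to 35.4% on dropping AAV2-scramble 1 and 2, and to 50.2% on dropping 3 and 4 instead. It was not counted in the other settings, so the member counts there have no all-gene share beside them. The Gjd2 difference was -0.19, -1.21 and -0.81 without those pairs and -0.51 to -0.88 with 1 library left out. Fewer libraries alone raise the smallest exact p. With the replicate block, 107 genes were called higher, 57 lower, 0 members and 2 of 13 mitochondrial DNA genes, with Cox4i2 at an adjusted p of 0.0982. Samples of the same number did not deviate together (correlations 0.13, -0.30, 0.23 and -0.27), so the block pairs samples by number only. The cause of these shifts was not tested.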
